A study of Mus musculus with 2 samples.

Results

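The 8 genes described here carry bile acids across the ileal epithelium or sense them there: Slc10a2, Fabp6, Slc51a, Slc51b, Nr1h4, Nr0b2, Fgf15 and Gpbar1. They were taken by name as a pathway, not by a threshold on values, and all 8 were found by identifier among the 43346 genes measured. The tissue was the small intestine of 1 adult female C57BL/6J mouse aged 10 weeks, with no treatment or other genotype stated. The segment of the intestine is not given in the labels. Poly(A) RNA was sequenced in 2 technical libraries, here the first library (technical replicate 1) and the second library (technical replicate 2, made later). No condition was compared, so the results are the levels of the genes and the differences between these 2 libraries. Both come from 1 animal, and intervals cover counting error only.

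Bile acids are made from cholesterol in the liver, reach the gut with bile and are recovered mainly in the terminal ileum. Slc10a2 encodes the apical sodium-dependent transporter that takes them into the enterocyte, Fabp6 the cytosolic carrier that binds them, and Slc51a and Slc51b the alpha and beta subunits of the basolateral exporter, which works as a heterodimer. Nr1h4 encodes FXR, the nuclear receptor that bile acids activate. FXR binds DNA mostly with a retinoid X receptor and raises Fgf15, the hormone that lowers bile acid synthesis in the liver, Nr0b2, the corepressor SHP, and also Fabp6 and both exporter genes. Gpbar1 encodes TGR5, a bile acid receptor at the cell surface. In the mouse, Slc10a2, Fabp6 and Fgf15 are known as genes of the distal small intestine.

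Promoter windows show the sequence around the starts of the transport genes and of the receptor. RefSeq windows of 300 bases on build GRCm38.p6, with 250 bases before the start and 50 from it on, matched 7 of the 8 genes, all but Fgf15. The windows were searched on both strands for 3 motifs. The inverted repeat of AGGTCA with 1 spacer base, the form that FXR with its partner is known to bind, was searched with up to 2 mismatches over its fixed bases. The palindrome of GTTAAT with 1 spacer base, the form of HNF1 sites, was searched in the same way, and AGATAA, known from sites of GATA factors, without mismatch. Capitals in the 5 windows that follow mark the matches to both palindromes.
Slc10a2 promoter, chr8:5105238-5105537, minus strand: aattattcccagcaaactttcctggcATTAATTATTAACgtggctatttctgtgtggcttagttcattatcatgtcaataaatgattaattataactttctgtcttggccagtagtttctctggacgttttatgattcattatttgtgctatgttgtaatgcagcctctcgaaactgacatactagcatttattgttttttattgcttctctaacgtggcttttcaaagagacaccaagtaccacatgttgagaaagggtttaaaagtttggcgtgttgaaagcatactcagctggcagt
Fabp6 promoter, chr11:43601513-43601812, minus strand: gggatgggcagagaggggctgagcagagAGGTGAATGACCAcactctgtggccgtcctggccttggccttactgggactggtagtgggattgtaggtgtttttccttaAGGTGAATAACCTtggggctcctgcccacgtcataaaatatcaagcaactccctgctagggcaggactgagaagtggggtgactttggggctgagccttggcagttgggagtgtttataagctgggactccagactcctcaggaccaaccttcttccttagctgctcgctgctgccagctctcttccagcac
Slc51a promoter, chr16:32487830-32488129, minus strand: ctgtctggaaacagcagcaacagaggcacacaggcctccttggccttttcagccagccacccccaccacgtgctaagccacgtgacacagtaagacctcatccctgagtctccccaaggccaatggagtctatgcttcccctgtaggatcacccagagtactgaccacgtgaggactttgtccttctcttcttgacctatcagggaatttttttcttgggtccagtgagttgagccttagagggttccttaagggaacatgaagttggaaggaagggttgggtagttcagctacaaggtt
Slc51b promoter, chr9:65422724-65423023, minus strand: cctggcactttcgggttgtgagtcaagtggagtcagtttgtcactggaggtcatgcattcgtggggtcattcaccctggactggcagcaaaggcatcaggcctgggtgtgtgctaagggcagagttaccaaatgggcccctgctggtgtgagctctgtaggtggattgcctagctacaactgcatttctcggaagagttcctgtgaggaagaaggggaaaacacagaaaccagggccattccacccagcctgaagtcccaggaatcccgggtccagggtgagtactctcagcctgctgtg
Nr1h4 promoter, chr10:89506609-89506908, minus strand: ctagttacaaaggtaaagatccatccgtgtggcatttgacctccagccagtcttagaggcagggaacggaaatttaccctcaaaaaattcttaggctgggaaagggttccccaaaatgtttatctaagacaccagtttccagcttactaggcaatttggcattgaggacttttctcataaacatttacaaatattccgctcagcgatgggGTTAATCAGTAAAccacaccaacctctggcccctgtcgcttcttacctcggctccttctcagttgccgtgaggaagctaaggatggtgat

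The inverted repeat was found in 1 of the 7 windows, that of Fabp6, which held 2 matches that began 222 and 142 bases before the start. Each had 2 mismatches. Of all 32851 promoter windows of the same length, 374 (1.14%) held such a match. The HNF1 palindrome matched in Slc10a2, 224 bases before the start with 1 mismatch, and in Nr1h4, 40 bases before it with 2 mismatches, against 1.36% of all windows. AGATAA matched in Nr1h4 alone, 131 bases before the start, against 11.2% of all windows. These matches describe letters in the windows and say nothing of binding. The RefSeq start of Nr1h4 lies 26927 bases inside the gene as GENCODE M21 draws it and is the start of 1 of the transcripts measured below. The start of Slc51b lies 182 bases inside the M21 gene.

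Depth was 28277875 expected counts in the first library and 24509862 in the second. Mitochondrial genes with their nuclear copies took 72.3% of TPM (a level per length, scaled to the same sum in each library) in the first library and 21.6% in the second, which lowers the TPM of other genes in the first. A log2 ratio of the second over the first library is therefore given from counts scaled by TMM, a method that sets the bulk of genes level. Genes with 20 or more counts over both libraries were tested with a two-sided exact binomial test and called at a Benjamini-Hochberg adjusted p under 0.05 with a difference of 2-fold or more. Of 15194 genes tested, 6108 (40.2%) were called higher in the second library and 4174 (27.5%) higher in the first. Most genes thus differed between libraries of 1 tissue sample, and the ratio moved with base composition: its Spearman correlation with GC content across genes was 0.855 for whole transcripts and 0.721 for coding parts, over genes that share these 2 libraries and are not independent. After removal of the trend on whole-transcript GC, 17.5% of genes were called higher in the second and 17.6% higher in the first. With the trend on coding GC these shares were 24.3% and 23.6%. Call counts of the gene lists below are to be read beside the shares of the same setting.

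Of the 8 genes, 3 reached 1 TPM in both libraries: Slc51b, Nr1h4 and Slc51a. Nr0b2 reached it in the second library alone, and Slc10a2, Fabp6, Fgf15 and Gpbar1 in neither. Over all genes 9147 (21.1%) reached 1 TPM in both, and over protein-coding genes 8632 (40.2%). Together the 8 genes held 0.00643% of TPM in the first library and 0.0330% in the second. Among nuclear genes alone, without mitochondrial genes and their copies, these shares were 0.0232% and 0.0421%. Both exporter genes and the receptor were thus detected, while the apical transporter, the carrier and the hormone were at or near 0.

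**Figure D1:**
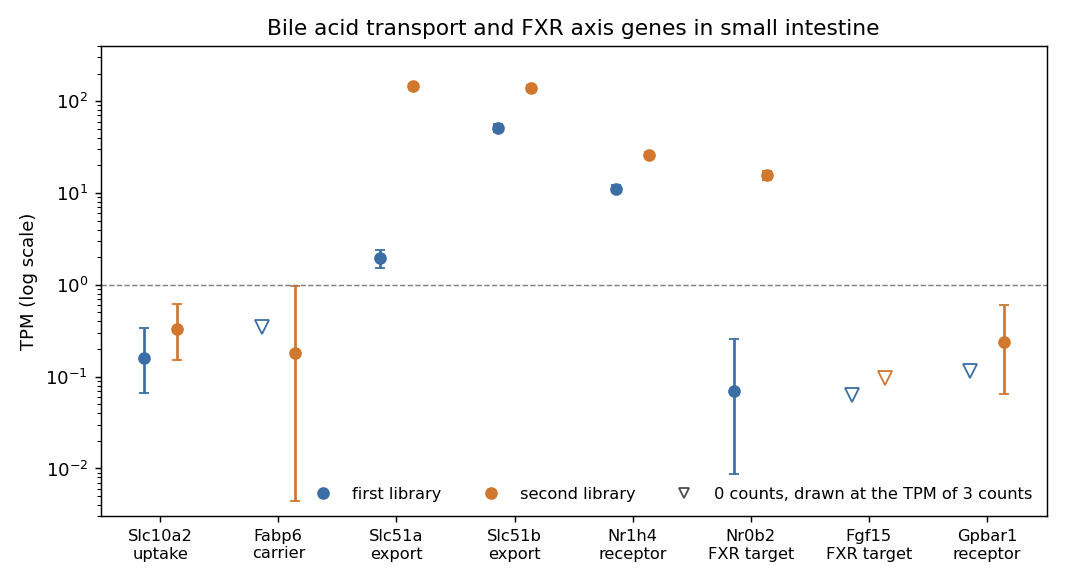
TPM of the 8 genes on a log axis in the first (blue) and second (orange) library. Bars are 95% exact Poisson intervals of the counts, hidden by the point where short, and open triangles stand at the TPM that 3 counts would give where a gene had 0 counts. The dashed line is at 1 TPM. Slc51b and Nr1h4 lie above it in both libraries, and Slc51a and Nr0b2 lie far apart between libraries.

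Slc10a2, on chr8:5083219-5105351 of mm10, stood at 0.16 TPM from 7 counts in the first library and 0.33 TPM from 9 counts in the second. The 95% intervals of 0.0661 to 0.339 TPM and 0.151 to 0.625 TPM overlap. With 16 counts in all it was below the limit for testing, and its scaled ratio was 0.829 with an interval of 0.275 to 2.62. The model counted in the deposited tables was 1629 bases long, against 4152 bases for the same transcript in M21, so reads from the added length were not counted. What they would add was not tested.

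The rest of the uptake family was low as well, though several relatives stood above Slc10a2. Of 16 listed SLC10 and OATP genes 15 were found, and 6 reached 1 TPM in both libraries. The highest, Slc10a5, an SLC10 family member, stood at 21.5 and 24.9 TPM in the first and second library. Slco2b1, an organic anion transporter, stood at 4.80 and 19.2 TPM. Slco2a1, a prostaglandin transporter, stood at 2.52 and 20.1 TPM, and Slc10a3 at 1.80 and 11.5 TPM. Slco1a6 had 0 counts in both. Of 9 genes tested, 3 were called for the second library and Slc10a5 alone for the first. With either GC trend taken out, the calls were 0 and 3. Slc10a2 lay below the median of the list, which was 0.25 and 0.37 TPM.

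Fabp6, on chr11:43596049-43601540, had 0 counts in the first library and 1 count, 0.18 TPM, in the second. A count of 0 allows up to 3 counts, or 0.350 TPM, in the first library. The single count in the second has an interval of 0.00446 to 0.981 TPM. On this scale, which includes mitochondrial genes, the gene thus stayed below 1 TPM within counting error in both. Among nuclear genes alone its level was 0 and 0.23 TPM, and no interval was computed on that scale. No difference between the libraries was detectable at this depth. Beside Fabp6, the lipid carriers of the small intestine were among the most abundant transcripts: Fabp2 stood at 3191 and 5248 TPM and Fabp1, the liver-type carrier, at 1080 and 9783 TPM. Rbp2, which carries retinol, stood at 196 and 6424 TPM, and Fabp4, a carrier of fat and endothelial cells, at 30.6 and 105 TPM. Of the 13 other genes of this family, 6 reached 1 TPM in both libraries. Of 8 tested, 5 were called higher in the second and 0 in the first, with a median log2 ratio of 1.55 against 0.26 over all genes tested. These calls were 8 and 0 without the whole-transcript GC trend and 6 and 0 without the coding trend. Fabp2 had a log2 ratio of -0.55 with TMM and turned positive with total counts and, at 1.10, once the GC trend was taken out.

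Slc51a, on chr16:32474504-32487879, stood at 1.94 TPM (81 counts) in the first library and at 147.84 TPM (3960 counts) in the second. The 95% intervals of 1.54 to 2.41 TPM and 143 to 153 TPM lie far apart. In the first library 7369 protein-coding genes stood above it and in the second 804. The scaled fold was 31.5, with an interval of 25.3 to 39.8, which is a log2 ratio of 4.97 (counting SE 0.161). The gene was called higher in the second library by the exact binomial test, with an adjusted p too small for the computation to hold. Of the 15194 genes tested, 1611 had a larger log2 ratio.

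Slc51b, on chr9:65412714-65422955, stood at 50.9 TPM (450 counts) in the first library and at 140 TPM (817 counts) in the second, with intervals of 46.3 to 55.9 TPM and 130 to 150 TPM. Among nuclear genes alone, without mitochondrial genes and their copies, its level was 184 and 178 TPM. The scaled fold was 1.17 with an interval of 1.04 to 1.32. On the log2 scale the ratio was 0.23 (counting SE 0.0847; exact binomial test, Benjamini-Hochberg adjusted p = 0.00875), under the 2-fold limit, so it was not called. With total counts as the scaling, which raises every log2 ratio by 0.84, it was called at 1.07, beside 51.4% of all genes called in that direction and 10.0% in the other. The median log2 ratio over all genes tested was 0.26.

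In TPM, the 2 subunit transcripts were therefore level in one library and far apart in the other. The ratio of Slc51a to Slc51b in TPM was 0.0381 (95% counting interval 0.0297 to 0.0484) in the first library and 1.06 (0.982 to 1.14) in the second. The 2 intervals do not overlap, and they cover counting error but not the choice of length. TPM divides by the deposited effective length, 1423 bases for Slc51a and 311 for Slc51b in the second library, against 1600 and 488 bases annotated. Slc51b stood 310 times above Slc10a2 in the first library and 424 times above it in the second, with intervals of 149 to 775 and 222 to 931 that overlap.

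Among the 4 genes tested, 2 were called for the second library, Slc51a and Nr0b2, beside 40.2% of all genes, and 0 for the first, beside 27.5%. Both calls held after removal of the GC trend, beside 17.5% of all genes called higher in the second and 17.6% in the first for whole transcripts, and beside 24.3% and 23.6% for coding parts. The size of the ratios moved with the part of the transcript used. Slc51a has a GC content of 47.7% over the M21 transcript, which is 2618 bases long against 1600 bases in the deposited tables, and 52.8% over its coding part. Its log2 ratio was 5.42 after the whole-transcript trend and 4.16, or 17.9-fold, after the coding trend, and the latter was added after the difference in length was seen. For Slc51b, 709 bases long in M21 and 488 bases in the tables, the values were -0.31 and 0.50, so its direction depended on this choice. Across the transcripts matched to M21, 91424 of 101510 had the same length in both.

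**Figure D2:**
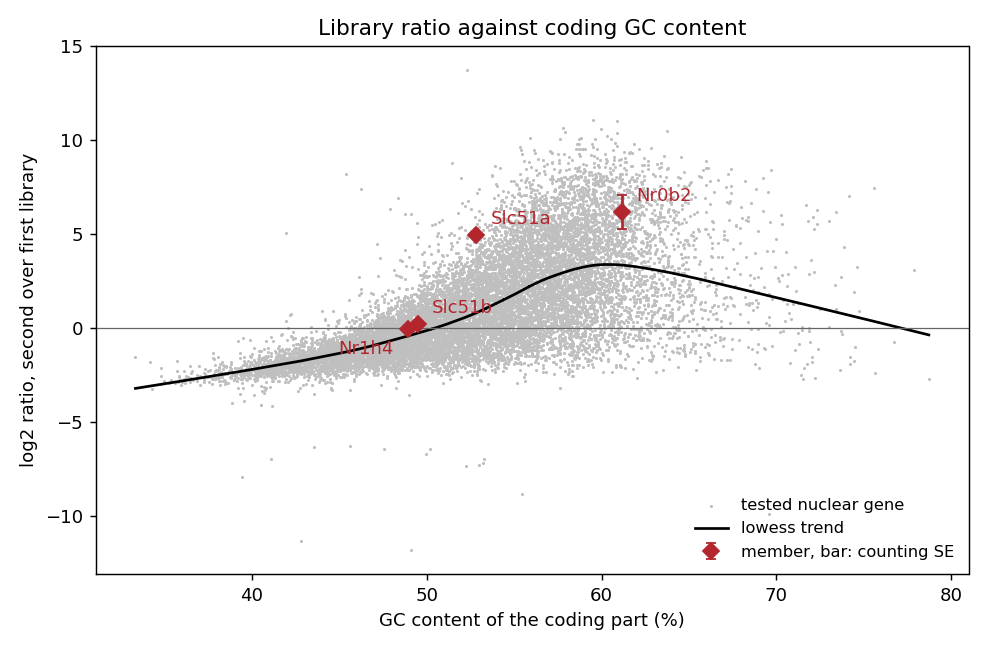
Log2 ratio of the second over the first library (TMM-scaled counts) against GC content of the coding part in percent, for each tested nuclear gene (grey), with the lowess trend (black) and the 4 tested bile acid genes (red, bars are the counting SE). Slc51b and Nr1h4 lie near the trend at log2 ratios of 0.23 and -0.06, while Slc51a at 4.97 and Nr0b2 at 6.17 lie above it. The spread of all genes around the trend is wide above 50% GC.

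Slc51a overlaps Pcyt1a, a gene of phosphatidylcholine synthesis on the opposite strand, which had 4822 and 7736 counts, and Slc51b overlaps Rasl12 on the opposite strand, with 7 and 31 counts. The sources used here do not say whether reads were counted by strand, so reads from the shared stretches may not be told apart. M21 transcripts of 5 other genes shared sequence with Slc10a2, at 95% identity over 100 bases or more. The same search found 1 other gene each for Slc51a and Fgf15. What such shared sequence does to the counts was not tested.

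The other exporters were led by apical pumps of the enterocyte. Of 9 listed genes 7 reached 1 TPM in both. Abcc2, an apical exporter of conjugated anions, stood at 267 and 202 TPM. Abcg5 and Abcg8, which form the apical sterol exporter, stood at 107 and 325 TPM and at 41.4 and 190 TPM, and Abcg2, an apical drug exporter, at 82.0 and 101 TPM. Of 8 tested, 1 was called for the second library and 2, Abcg2 among them, for the first, with a median log2 ratio of -0.22. With total counts as the scaling these counts were 3 and 0, and without the whole-transcript and coding GC trends they were 0 and 2 and then 1 and 1. The TPM of Abcc2 was lower in the second library at 17448 counts against 16013, with a deposited effective length of 4587 bases against 2029.

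Nr1h4, on chr10:89454234-89533585, stood at 11.2 TPM (591 counts) in the first library and at 26.1 TPM (881 counts) in the second, with intervals of 10.3 to 12.1 TPM and 24.4 to 27.8 TPM. Among nuclear genes its level was 40.4 and 33.2 TPM. On TMM-scaled counts the ratio was -0.06 in log2 units (counting SE 0.0767; exact binomial test, adjusted p = 0.493), a fold of 0.961 with an interval of 0.865 to 1.07. The sign turned after removal of the GC trend, to 0.64 for whole transcripts and 0.37 for coding parts, and with total counts, to 0.78, each under 2-fold. Slc51b stood 4.56 times above Nr1h4 in the first library and 5.36 times in the second, with overlapping intervals of 4.02 to 5.16 and 4.87 to 5.90.

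Nr1h4 was the only one of the 8 genes with more than 1 transcript in the tables. The mouse gene is known to start at 2 places and to include or leave out a short stretch at the end of an exon that codes for the hinge beside the DNA-binding domain. The stretch is 12 bases long, at chr10:89483372-89483383 on the minus strand, and lies in the coding sequence. The M21 transcripts are shown with 25 bases on each side, the stretch in capitals.
Nr1h4 with the stretch (ENSMUST00000105296 and ENSMUST00000105297): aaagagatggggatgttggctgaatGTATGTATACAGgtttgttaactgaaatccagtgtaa
Nr1h4 without it (ENSMUST00000058126): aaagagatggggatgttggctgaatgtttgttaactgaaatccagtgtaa

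ENSMUST00000058126, without the stretch, held 49.71% of the gene's TPM in the first library and 64.12% in the second, per the deposited isoform shares. ENSMUST00000105296, with the stretch, held 42.68% and 32.00%. ENSMUST00000105297, with the stretch and with the upstream start at position 89533585, held 7.61% and 3.88%. Summed, transcripts with the 12 bases held 50.29% in the first library and 35.88% in the second. Transcripts from the internal starts, at positions 89506649 and 89506658 and so within a few bases of the RefSeq start, thus held most of the gene's level in both libraries.

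The interval bounds that the deposited tables give for TPM were 3.79 to 7.15 for ENSMUST00000058126 in the first library and 12.6 to 18.8 in the second. For ENSMUST00000105296 they were 2.67 to 6.37 and 4.97 to 11.3, so the bounds of these transcripts overlap within the first library and do not in the second. For ENSMUST00000105297 they were 0.301 to 1.78 and 0.346 to 2.00. ENSMUST00000058126 and ENSMUST00000105296 differ by few bases. ENSMUST00000105297 has other first exons, and its last exon is 576 bases long in M21 against 715 in the other transcripts. The level of the interval is not stated in the tables, and no test of the shares was made.

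**Figure D3:**
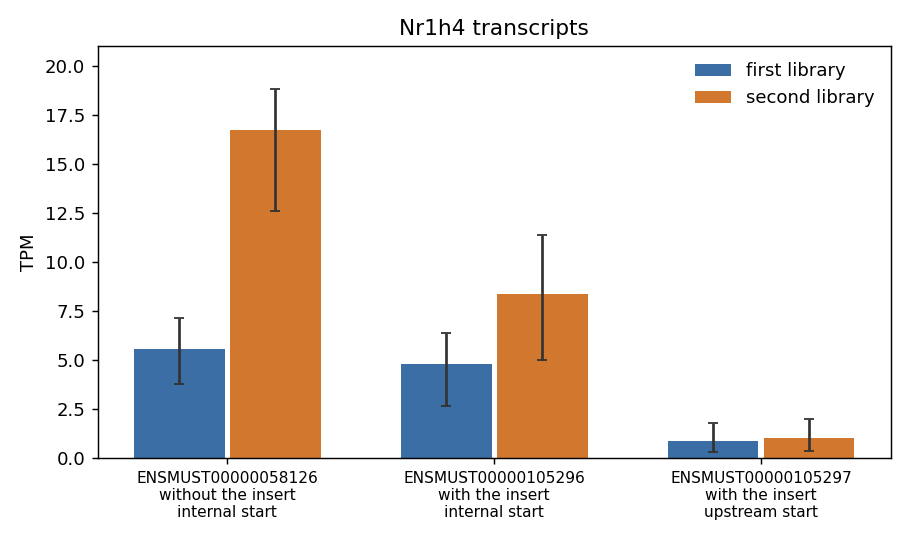
TPM of the 3 Nr1h4 transcripts in the first (blue) and second (orange) library, with bars for the deposited interval bounds. The transcript without the 12 bases is highest in the second library, at 16.71 TPM against 8.34 TPM for the next, while in the first library they stand at 5.56 and 4.77 TPM. The transcript with the upstream start is lowest in both, at 0.85 and 1.01 TPM.

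The partners and coregulators of FXR were present, with the retinoid X receptors uneven between libraries. Of 12 listed genes 8 reached 1 TPM in both. Ncor1, a corepressor, stood at 94.2 and 152 TPM, and Ppargc1a, a coactivator, at 20.7 and 19.8 TPM. On TMM-scaled counts Ncor1 had a log2 ratio of -0.62 and was not called, and Ppargc1a was called for the first library, at -1.53. Ppargc1a kept that call without the coding GC trend, at -1.11, but not without the whole-transcript trend, at -0.86. Rxra stood at 1.52 and 59.9 TPM and Rxrb at 0.06 and 26.6 TPM, and both were called higher in the second library, with log2 ratios of 3.87 and 7.16. Rxra was not called once a GC trend was taken out, at -0.75 for whole transcripts and 0.67 for coding parts, while Rxrb kept its call at 2.02 and 3.80. Of 11 genes tested, 5 were called for the second library and 2 for the first, against 2 and 2 without the whole-transcript GC trend and 3 and 2 without the coding trend.

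Among other nuclear receptors, Hnf4g and Hnf4a, regulators of the enterocyte, stood at 254 and 234 TPM and at 27.3 and 223 TPM. Vdr, the vitamin D receptor, which bile acids can also bind, stood at 40.6 and 196 TPM, and Nr1i3, the receptor CAR, at 4.60 and 87.2 TPM. Nr1h4 was below Hnf4g, Hnf4a and Vdr in both libraries. Of 11 listed receptors 7 reached 1 TPM in both, and Nr1h5, the FXR beta gene, and Nr0b1 had 0 counts in both. Of 9 tested, 6 were called for the second library and 2 for the first, against 3 and 3 once the whole-transcript GC trend was taken out and 4 and 3 for the coding trend. Hnf4a turned from a log2 ratio of 1.65 to -1.67 without the whole-transcript trend and to -1.14 without the coding trend.

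**Figure D4:**
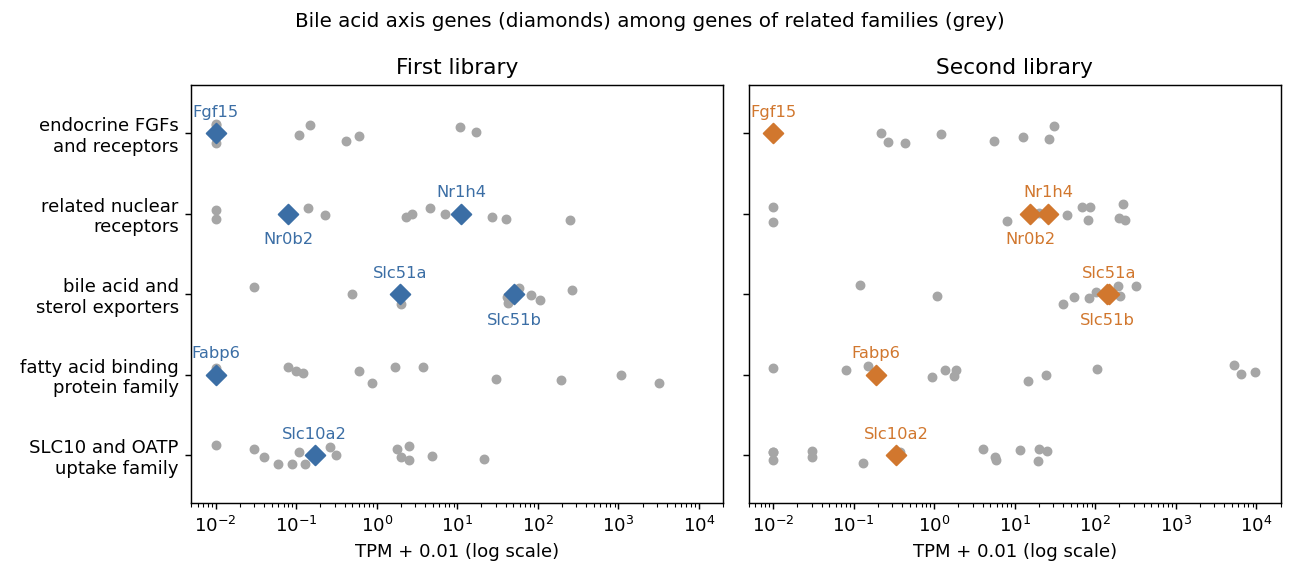
TPM + 0.01 on a log axis for the bile acid genes other than Gpbar1, which is not drawn, in the first library (left) and the second (right). Diamonds are the bile acid genes, and grey points, spread vertically for display, are the listed genes of their families. Slc10a2, Fabp6 and Fgf15 lie below 1 TPM in both libraries, and the exporter genes lie among abundant exporters except for Slc51a in the first library.

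Nr0b2, on chr4:133553376-133556536, stood at 0.07 TPM from 2 counts in the first library and at 15.5 TPM from 279 counts in the second, with intervals of 0.00869 to 0.259 TPM and 13.8 to 17.5 TPM that do not overlap. The scaled fold was 90.0, with a wide interval of 24.7 to 747 that the 2 counts set. In log2 units the ratio was 6.17 (counting SE 0.917; exact binomial test, adjusted p = 1.2e-56), and 843 genes of those tested had a larger one. The coding part has a GC content of 61.2%, where the coding trend stands at 3.35. Its log2 ratio fell to 2.82 (adjusted p = 1.95e-05) after that trend and to 1.95 (adjusted p = 0.0118) after the whole-transcript trend. The part of GC content in the first library's low count was not tested.

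Fgf15, on chr7:144896531-144900953, had 0 counts in both libraries. A count of 0 allows up to 3 counts per library, or 0.0626 TPM in the first and 0.0977 TPM in the second. Gm26793, annotated antisense to it, also had 0 counts in both. Of 9 listed genes of endocrine FGFs and their receptors, 2 reached 1 TPM in both libraries: Malrd1, which raises FGF15 output of enterocytes in the mouse, at 16.9 and 26.6 TPM, and Fgfr2, at 10.8 and 30.5 TPM. Fgfr3 stood at 0.59 and 12.6 TPM and Fgfr1 at 0.41 and 5.53 TPM. Fgf23, another endocrine FGF, had 0 counts in both. Fgfr4 and Klb, the hepatic receptor and coreceptor of FGF15, were named after their values were seen and stood at 0 and 1.20 TPM and at 0.14 and 0.42 TPM. Of 7 tested, 3 were called for the second library and 0 for the first, against 0 and 2 with the whole-transcript GC trend taken out and 1 and 1 with the coding trend.

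Gpbar1, on chr1:74278550-74279624, had 0 counts in the first library, which allows up to 0.115 TPM, and 4 counts, 0.24 TPM, in the second. Its interval in the second library was 0.0645 to 0.606 TPM, so a difference between the libraries was not detectable at this depth. Slc10a2, Fabp6 and Gpbar1 overlap in their intervals in the second library, and no order among them is given.

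Other genes listed as targets of FXR, whatever the tissue, spanned a wide range. Of 12 listed, 7 reached 1 TPM in both libraries, and 4 stood near 0 in both, named after their values were seen: Nos2 (0.01 and 0.13 TPM), Abcb4 (0.02 and 0.04 TPM), Fetub (0.03 and 0.14 TPM) and Slco1a5 (0.05 and 0.02 TPM). Cyp3a11, a drug and bile acid hydroxylase, stood at 3416 and 2301 TPM, Il18, a cytokine of the epithelium, at 439 and 214 TPM, and Ugt1a1, which conjugates bilirubin, at 60.9 and 233 TPM. Of 8 tested, 3 were called higher in the second and 2, Cyp3a11 and Il18, in the first, and neither of those 2 was called once either GC trend was taken out. Calls for the list were then 2 and 1 with either trend. Regional transcription factors were led by Creb3l3 at 8.06 and 258 TPM, Maf at 71.9 and 50.6 TPM, Gata4, a factor of the proximal intestine that represses ileal genes in the mouse, at 17.2 and 91.8 TPM, and Klf5 at 8.69 and 75.6 TPM. Of 14 tested, 10 were called for the second library and 2 for the first, against 3 and 7 with the whole-transcript GC trend taken out and 3 and 6 with the coding trend. The shares over all genes tested were 40.2% and 27.5%, then 17.5% and 17.6%, then 24.3% and 23.6%. Gata4 stood at a log2 ratio of 2.95, at 0.02 without the whole-transcript trend and at 0.03 without the coding trend.

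Bile acid synthesis genes were present in part. Of 18 listed genes 7 reached 1 TPM in both, led by Scp2, a sterol carrier and thiolase, at 452 and 1438 TPM, Slc27a2 at 53.9 and 168 TPM, Hsd17b4 at 39.3 and 153 TPM and Cyp27a1, the sterol 27-hydroxylase, at 3.53 and 60.7 TPM. Hsd3b7, a sterol dehydrogenase of the pathway (3.98 and 35.3 TPM), Cyp39a1, an oxysterol hydroxylase (3.67 and 2.96 TPM), and Amacr, a racemase (2.05 and 10.5 TPM), were the others, named after their values were seen. Cyp7a1, the rate-limiting enzyme of the classic route, and Cyp8b1 had 0 counts in both. Scp2 was called for the first library, at a log2 ratio of -1.15 from 32762 and 22933 counts, although its TPM was higher in the second. Among nuclear genes alone, Scp2 stood at 1634 and 1834 TPM. Its effective length in the deposited tables was 2449 bases in the first library and 847 bases in the second. Of 11 tested, 4 were called for the second library and 3 for the first, with a median log2 ratio of 0.02, against 3 and 1 without the whole-transcript GC trend and 2 and 2 without the coding trend.

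Because Slc10a2, Fabp6 and Fgf15 are genes of the distal intestine, markers of position were set beside them. Of 12 proximal markers 10 reached 1 TPM in both libraries, led by Fabp1. Adh6a, an alcohol dehydrogenase, stood at 206 and 890 TPM, Cyp2b10, a xenobiotic hydroxylase, at 164 and 616 TPM and Lct, the lactase gene, at 30.3 and 517 TPM. Of 10 other distal markers 8 reached 1 TPM in both, led by Fcgbp, of goblet cells, at 3.42 and 1463 TPM, Clec2h at 363 and 496 TPM, Reg3g, an antimicrobial lectin, at 96.2 and 119 TPM, and Mep1a at 20.7 and 56.3 TPM. The summed level was 1594 and 12490 TPM for the proximal list and 549 and 2250 TPM for the distal, but single genes set these sums. Among nuclear genes alone, the proximal list held 0.576% and 1.59% of TPM and the distal list 0.199% and 0.287%. Without Fabp1 the proximal sum was 514 and 2703 TPM, in the first library below the distal, and without Fcgbp the distal sum in the second library was 787 TPM. Of the 12 proximal genes tested, 7 were called for the second library and 2 for the first, against 6 and 1 without the whole-transcript GC trend and 4 and 4 without the coding trend. Of 9 distal genes tested the calls were 2 and 2, against 2 and 1 and then 1 and 1. The part of the intestinal segment in the low values was not tested.

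The labelled tissue showed its defining markers. All 10 enterocyte markers reached 1 TPM in both libraries, with summed levels of 7536 and 13170 TPM, among them Sis, the sucrase gene (2598 and 1226 TPM), the peptidase gene Anpep (195 and 1555 TPM) and Alpi, the intestinal phosphatase (44.0 and 1524 TPM). Among nuclear genes alone, the order of the sums turned: these markers held 2.72% of TPM in the first library and 1.68% in the second. The 2 largest genes of that sum in the first library were Fabp2, at 11530 and 6695 nuclear TPM, and Sis, at 9389 and 1564. Anpep, at 704 and 1983, and Alpi, at 159 and 1944, went the other way. Of 10 tested, 4 were called for the second library and 2 for the first, against 3 and 1 without the whole-transcript GC trend and 4 and 0 without the coding trend. In bulk tissue, fewer cells of a type and less RNA per cell cannot be told apart. Liver, the other main site of Nr1h4 and Nr0b2, left little signal: 1 of 10 hepatocyte markers, Cyp2e1, reached 1 TPM in both, at 4.66 and 10.9 TPM, Ttr stood at 0.53 and 4.64 TPM, Apoh at 0.10 and 1.10 TPM and Alb at 0.67 and 0.34 TPM, and Ahsg and Cyp7a1 had 0 counts in both. Their summed level was 6.19 and 17.6 TPM, with 2 of 4 tested called for the second library and 1 for the first, against 1 and 1 and then 0 and 1 without these trends. Among nuclear genes alone, the hepatocyte markers held 0.00224% of TPM in each library.

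Cell types known to express Gpbar1 were checked in the same way. Of 8 macrophage markers 3 reached 1 TPM in both, with summed levels of 14.3 and 245 TPM. Among nuclear genes alone, they held 0.00516% and 0.0313% of TPM. C1qa stood at 0.44 and 72.7 TPM, C1qb at 0.08 and 65.0 TPM, C1qc at 0.93 and 57.7 TPM and Csf1r at 0.52 and 25.4 TPM. The 3 at 1 TPM in both were named after their values were seen. Mrc1 stood at 7.28 and 4.15 TPM, Adgre1 at 2.88 and 5.93 TPM and Cx3cr1 at 1.69 and 4.53 TPM. Mrc1 was called for the first library, at a log2 ratio of -1.66. Adgre1 and Cx3cr1, at -0.24 and 0.14, were not called. Of 8 tested, 5 were called for the second library and 1 for the first, against 5 and 0 with the whole-transcript GC trend taken out and 5 and 1 with the coding trend. Over all genes tested, 40.2% were called for the second library and 27.5% for the first. The part of these cells in any result was not tested.

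Of 8 markers of L cells, which release gut hormones, 4 reached 1 TPM in both: Gcg at 19.1 and 19.4 TPM, Pcsk1 at 2.99 and 4.36 TPM, the factor gene Etv1 at 2.60 and 3.24 TPM and, named after its values were seen, Neurod1 at 3.46 and 2.10 TPM. On TMM-scaled counts Gcg, Etv1 and Neurod1 were called for the first library, at log2 ratios of -1.271, -1.865 and -1.993, and Pcsk1 was not called. Chga stood at 0.78 and 50.9 TPM, and Insl5, a hormone of the colon, had 0 counts in both. The summed level of the L cell markers was 28.9 and 82.9 TPM, with 1 of 5 tested called for the second library and 3 for the first, against 1 and 1 without the whole-transcript GC trend and 1 and 3 without the coding trend. Among nuclear genes alone, the L cell markers held 0.0104% and 0.0106% of TPM. Of 8 markers of biliary epithelium and gallbladder 4 reached 1 TPM in both, with summed levels of 305 and 1324 TPM, mostly from Epcam at 265 and 682 TPM and Krt19 at 2.71 and 595 TPM, which the gut epithelium also expresses. The share of these 8 markers among nuclear genes alone was 0.110% and 0.169% of TPM. Cftr stood at 31.9 and 20.5 TPM and Krt7 at 0.24 and 18.6 TPM, and of 7 tested 3 were called for the second library and 2 for the first, against 2 and 3 and then 2 and 2. Of 8 markers of enteric neurons and glia 2 reached 1 TPM in both. Vip stood at 28.4 and 19.1 TPM, Uchl1 at 0.21 and 8.76 TPM and Elavl4 at 1.32 and 0.99 TPM. Their summed level was 32.1 and 34.3 TPM, with 3 of 8 called in each direction, against 1 for the second and 2 for the first without the whole-transcript GC trend, and 1 and 5 without the coding trend. Among nuclear genes alone, the neuron and glia markers held 0.0116% of TPM in the first library and 0.00438% in the second.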

How the data were processed

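Poly(A) RNA of 1 mouse was measured in 2 technical libraries. Per the file headers, the authors deposited RSEM-format tables with expected counts, TPM and FPKM per gene and, per transcript, isoform shares in percent. The deposited tables also hold TPM interval bounds and lengths, used here as signal values. The deposited notes give mm10 and annotation M4. The sources used here do not give the aligner or the version of the quantifier. Symbols, positions and GC content came from GENCODE M21.

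Expected counts were rounded. Since 1 library a side leaves edgeR's quasi-likelihood model no residual degrees of freedom, genes with 20 or more counts over both libraries were tested by a two-sided exact binomial test (scipy 1.17.1), with the expected split from TMM sizes (edgeR 4.0.16) and Benjamini-Hochberg adjustment. It compares these 2 libraries, not conditions, and the spread is technical. Log2 ratios used a prior count of 0.5 and scaled folds none. GC trends were lowess fits (span 0.3). Alternatives were total counts, DESeq2 1.42.0 size factors, TMM without mitochondrial genes, other filters and FPKM. Calls were tested on simulated data. Reads without molecular identifiers are not independent, so 95% intervals and the limit of 3 counts for a count of 0 cover counting error only.

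All 8 genes, and of each of 17 lists the up to 4 genes of highest mean TPM and those at 0 counts where a list was low, are named. A gene that this rule names is withheld for evaluation and is not reported here. Genes and lists were chosen with earlier results of these data known.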

Additional observations from a re-analysis of the deposited data

How the results depend on the processing

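Calls of Slc51a and Nr0b2 as higher in the second library held under every scaling, filter and GC setting tried, with log2 ratios of 4.16 to 5.81 and 1.95 to 7.01. With total counts as the scaling, which raises every log2 ratio by 0.84 and the median of all genes from 0.26 to 1.10, Slc51b was also called, at 1.07, for 3 calls against 2. Nr1h4 was called under none of them, but its sign was negative with TMM, DESeq2 size factors and TMM without mitochondrial genes, and positive with total counts and after either GC trend. Slc51b turned negative after the whole-transcript trend alone, and the cause was not tested. The mean ratio of Slc51a to Slc51b was 0.548 in TPM and 0.767 in counts per kilobase of annotated length. In expected counts, which are not per length and so favour the longer Slc51a, it was 2.51. Each library alone gave a ratio of 0.0381 and 1.06, a summed share of 0.00643% and 0.0330% of TPM, and 3 and 4 genes at 1 TPM or more. At 5 TPM the number detected in both was 2 in place of 3. No paired analysis was possible because the libraries are 1 sample of 1 animal with no second group. In the gene lists, total counts gave 0 to 2 calls per list for the first library in place of 0 to 3 with TMM. Depth limits Slc10a2, Fabp6, Fgf15 and Gpbar1, each under 20 counts in all, and the fold of Nr0b2, which rests on 2 counts in the first library.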
